A study of Mus musculus with 12 samples.

Results

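Ovariectomy was compared with the intact state in livers of dexamethasone-treated female mice, using 6 of the 12 RNA-seq libraries of the series. All 12 libraries came from wild-type C57BL/6 females, and livers were taken 6 hours after treatment. The 3 ovariectomized and 3 intact dexamethasone libraries came from females given dexamethasone, a synthetic glucocorticoid, at 1 mg/kg. The other 6 libraries, 3 from ovariectomized and 3 from intact females given PBS (called vehicle below), served to ask whether an effect of ovariectomy was also seen without the drug. The libraries were chosen by their labels, and the genes described are the 12965 of 24033 symbols with a mean log2 level of at least 4 over the 12 libraries. No source used here gives the animals' age or the time since surgery. Whether each replicate is its own animal is also not stated, so the p-values below measure only the spread between these samples, which may be technical.

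The ovary is the main source of oestrogen in a female mouse. Oestrogen acts in hepatocytes through oestrogen receptor alpha, encoded by Esr1, and also shapes the pattern of growth hormone release that sets many sex differences of liver expression. Dexamethasone binds the glucocorticoid receptor, encoded by Nr3c1, which induces genes of gluconeogenesis, amino acid breakdown and lipid handling and represses inflammatory genes. A comparison of gonadal states under the drug therefore looks at a liver whose glucocorticoid receptor is occupied in both groups. Major urinary proteins, or Mups, are small lipocalins that the mouse liver secretes into urine, where they carry pheromones, and several are known to be higher in males.

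Levels are the deposited log2 values. Differences are log2 fold changes, ovariectomized minus intact, with the standard error (SE) that limma gives (3 libraries in each group). A gene is said to have passed, risen or fallen when its Benjamini-Hochberg adjusted p was under 0.05. Under dexamethasone, 1004 genes were higher in ovariectomized females (7.74% of the genes tested) and 658 were lower (5.08%), 1662 in all (12.8%). The changes were mostly small: the median absolute difference was 0.34 among genes that passed and 0.13 among all genes. At least 2-fold differences were found in 16 of the genes that rose and 24 of those that fell. The libraries of the 2 groups did not overlap in 34.1% of all genes tested, so a lack of overlap was common. Recentring the libraries to the same median turned the split into 728 higher and 782 lower. The first principal component of the 6 libraries held 48.9% of their variance and separated the groups, and intact replicate 3 lay furthest from the rest. The counts were sensitive to single libraries: 145 genes were higher and 62 lower without ovariectomized replicate 3, and 204 and 108 without intact replicate 1. The read depth of each library cannot be recovered from these values. The hepatocyte marker Alb, encoding albumin, was at 21.59 to 21.94 in the 6 libraries, in a table whose highest value was 22.03.

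The largest rises were those of Mup genes. Mup2 and Mup19 had the largest rises among genes with a listed promoter, and their start regions are shown because they are nearly the same sequence. Both windows hold 250 bases before to 50 after the gene start, from RefSeq on build GRCm38.p6: Mup2 at chr4:60139807-60140106, minus strand, and Mup19 at chr4:61782175-61782474, minus strand. The genome build used for the deposited table was mm9, so these positions do not belong to the table. Capitals mark bases with no identical partner in the alignment of the pair.
Mup2: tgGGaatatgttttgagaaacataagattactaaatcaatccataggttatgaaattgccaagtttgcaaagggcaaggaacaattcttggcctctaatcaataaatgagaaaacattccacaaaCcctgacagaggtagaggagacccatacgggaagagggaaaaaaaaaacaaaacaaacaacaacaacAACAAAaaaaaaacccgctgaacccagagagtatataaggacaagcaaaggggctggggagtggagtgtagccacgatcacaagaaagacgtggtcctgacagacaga
Mup19: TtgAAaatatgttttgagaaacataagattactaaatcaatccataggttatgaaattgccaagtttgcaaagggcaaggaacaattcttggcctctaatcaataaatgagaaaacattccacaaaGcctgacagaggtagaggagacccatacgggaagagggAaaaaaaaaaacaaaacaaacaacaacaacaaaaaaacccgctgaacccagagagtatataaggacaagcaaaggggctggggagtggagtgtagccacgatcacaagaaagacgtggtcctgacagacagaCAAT
Over 294 aligned bases, 291 were identical (98.98%). Of the 17 Mup genes tested, 11 had a listed promoter, and 8 of the 10 others were more than 95% identical to Mup2 over the aligned bases. Transcripts of the family are alike as well: at least 61.6% of the 50-base words in each of the 8 Mup transcripts that passed occurred in another gene. How the authors' counting treated reads shared among members is not given in the sources used here, so the value of any single Mup gene is uncertain.

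The level of Mup2 (Entrez 17841) was 7.27, 7.54 and 6.83 in the intact dexamethasone libraries and 9.98, 10.90 and 11.33 in the ovariectomized ones. Every ovariectomized library was above every intact one. Mup2 rose by 3.52 ± 0.37, or 11.5-fold (limma adjusted p = 0.000821). Under vehicle its difference was 2.76 ± 0.37 (adjusted p = 0.000612), and the effects under the 2 treatments did not differ by the test of the difference (0.76 ± 0.52, adjusted p = 0.299).

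Of the 17 Mup genes, 8 rose and none fell, and all 17 differences were above 0, with a median of 1.68 against 0.02 over all genes tested. The count was 8 under recentring and under quantile normalization, and 6 to 9 when 1 dexamethasone library was left out, except that it was 5 without ovariectomized replicate 3. Mup13 rose by 3.42, Mup19 by 3.41, Mup15 by 3.10, Mup12 by 2.86, Mup8 by 2.62, Mup1 by 2.43 and Mup9 by 1.86. In the intact group replicate 3 had the lowest level of each of these genes, and in the ovariectomized group replicate 1 did. Mup3, one of the family's most abundant members and one with few shared words (13.3%), stood at 14.97, 15.71 and 14.21 in intact and 15.14, 15.52 and 15.62 in ovariectomized females. Its groups overlapped and it did not pass (0.46 ± 0.31, adjusted p = 0.325). Mup20, which encodes the male pheromone darcin, did not pass either (0.38 ± 0.16, adjusted p = 0.137). Under vehicle 7 Mup genes were higher and none lower, against 12.4% higher and 15.5% lower of all genes tested.

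**Figure D1:**
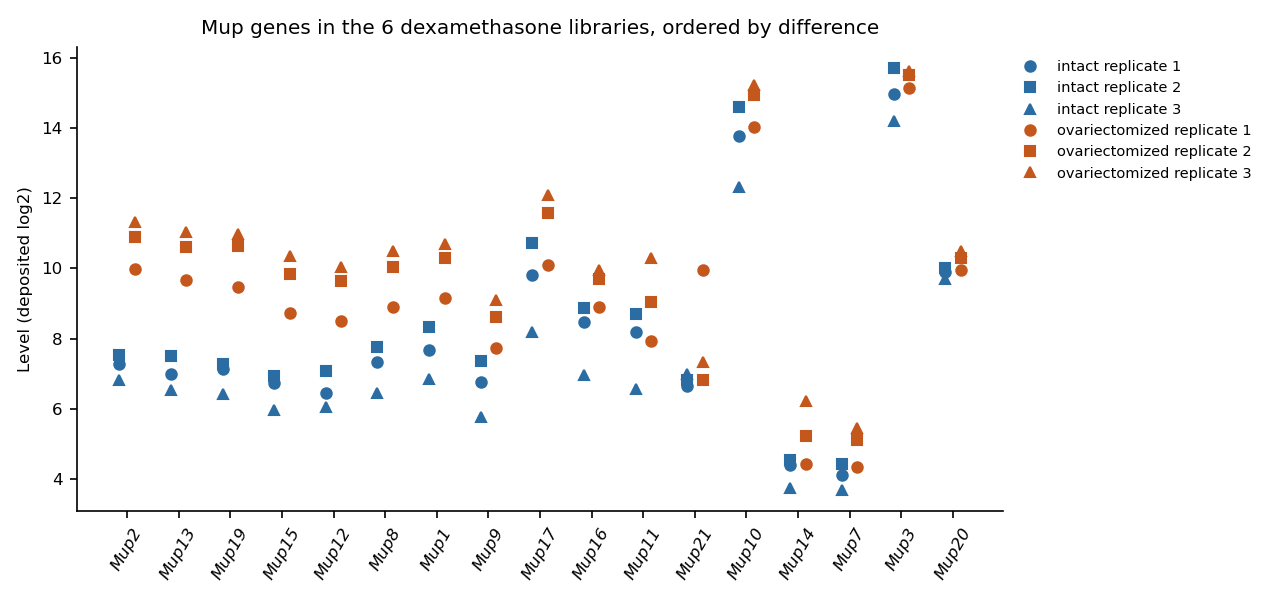
Deposited log2 levels (vertical axis) of the 17 Mup genes (horizontal axis, ordered by difference) in the 3 intact (blue) and 3 ovariectomized (orange) dexamethasone libraries, with 1 symbol per replicate number. The groups stand apart from Mup2 to Mup9, while Mup3 and Mup10, the most abundant members, overlap.

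Lists of genes of known sex bias gave few calls outside the Mup family. Of 39 measured male-predominant liver genes, 6 rose (15.4%) and 1 fell, with a median of 0.28 against 0.02 over all genes. Of the 6, 5 were Mup genes. The other was Hsd17b6, an enzyme of steroid metabolism (0.54). The list's count was 3 without intact replicate 1 or ovariectomized replicate 3. The member that fell was Selenbp2, a selenium-binding protein. Its level was 11.33, 10.84 and 11.97 in intact and 10.19, 9.47 and 10.07 in ovariectomized libraries, with no overlap. Selenbp2 (Entrez 20342) fell by 1.48 ± 0.38 (adjusted p = 0.0305), and 43.9% of its 50-base words occur in another gene. Of 42 measured female-predominant genes, 4 rose and 1 fell, a share close to that of all genes. The flavin monooxygenase gene Fmo2 rose by 0.66 and the transcription factor gene Tox by 0.59. Among the growth hormone and IGF genes 2 of 26 rose (7.7%), the share of all genes being 7.74%. They were the transcription factor gene Onecut1 (1.26 ± 0.33, adjusted p = 0.033) and the phosphatase gene Ptpn1 (0.26). Igf1, the main growth hormone target that the liver secretes, was at 13.96, 14.14 and 14.30 in intact and 14.17, 14.00 and 14.28 in ovariectomized females, a difference of 0.02 ± 0.10 (adjusted p = 0.93) that was below 0 under recentring and under quantile normalization.

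The promoters of the 2 largest rises and 2 largest falls with an entry (Mup2, Mup19, Rps10 and Selenbp2) were searched for the palindromic oestrogen response element, found in 0.07% of 32851 promoters of the same length, and for the glucocorticoid response element core ACANNNTGT, found in 6.85%. Each motif reads the same on both strands. The only match was a glucocorticoid element core in the Selenbp2 window, chr3:94693323-94693622 on the plus strand, shown with the match in capitals.
Selenbp2: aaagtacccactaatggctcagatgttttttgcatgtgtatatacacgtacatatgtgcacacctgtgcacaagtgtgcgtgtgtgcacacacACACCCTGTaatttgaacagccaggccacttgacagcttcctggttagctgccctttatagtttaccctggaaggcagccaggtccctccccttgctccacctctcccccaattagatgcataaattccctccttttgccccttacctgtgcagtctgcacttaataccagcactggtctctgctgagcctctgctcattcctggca
A match of letters is a description of the sequence, and binding was not measured here.

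Steroid receptor genes themselves did not pass. Esr1 was at 8.91, 8.01 and 8.93 in intact and 9.33, 7.88 and 9.47 in ovariectomized dexamethasone libraries. Replicate 2 was the lowest of each group and the groups overlapped. Its difference was 0.27 ± 0.35 (adjusted p = 0.625), and it was -0.03 without intact replicate 2 and -0.02 without ovariectomized replicate 3. Nr3c1 was at 10.74, 10.83 and 10.85 in intact libraries and had a mean of 10.91 ± 0.087 (SD) in the 3 ovariectomized ones, with overlap, a difference of 0.11 ± 0.054 (adjusted p = 0.208).

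Among oestrogen-responsive liver genes, 2 of 26 measured rose (7.7%) and none fell, a share like the 7.74% of all genes. The larger rise was that of Nrip1 (Entrez 268903), a corepressor that binds ligand-occupied oestrogen receptor and other nuclear receptors. Its level was 5.52, 5.51 and 5.62 in intact and 6.17, 6.44 and 6.54 in ovariectomized dexamethasone libraries, without overlap. Nrip1 rose by 0.84 ± 0.11, or 1.79-fold (adjusted p = 0.00305). Under vehicle it was lower in ovariectomized females, by 0.83 (difference -0.83, adjusted p = 0.000558), and the 2 effects differed by 1.66 ± 0.15 (adjusted p = 0.000158). Hsd17b4, a peroxisomal enzyme that oxidizes oestradiol and fatty acids, rose by 0.32 ± 0.088 (adjusted p = 0.0373).

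Of 41 measured glucocorticoid receptor targets, 5 rose (12.2%, against 7.74% of all genes) and none fell in ovariectomized females. They were Cdkn1a (1.27), Lcn2 (0.76), the transcription factor gene Klf9 (0.56), the triglyceride lipase gene Pnpla2 (0.44) and the tryptophan-degrading enzyme gene Tdo2 (0.40). Cdkn1a, the cell cycle inhibitor p21, was at 10.15, 9.21 and 11.17 in intact and 11.73, 11.11 and 11.51 in ovariectomized libraries. Intact replicate 3 lay within the ovariectomized range, and Cdkn1a passed only narrowly (± 0.36, adjusted p = 0.0417). Its call was lost in 15 of 24 alternative fits, and its difference was 0.79 without intact replicate 2 and 1.77 without intact replicate 3. Lcn2, an iron-scavenging lipocalin of the acute phase, was at 13.01, 12.38 and 12.79 against 13.53, 13.55 and 13.38, with no overlap (± 0.20, adjusted p = 0.0315). The receptor's chaperone gene Fkbp5 (0.42 ± 0.22, adjusted p = 0.209), the clock gene Per1 (0.28 ± 0.16, adjusted p = 0.26) and Tsc22d3, which encodes the anti-inflammatory protein GILZ (0.29 ± 0.15, adjusted p = 0.212), did not pass. The list's count was 10 without intact replicate 3, in which its mean level was the highest of the intact group, and 1 or 2 without any other dexamethasone library. Sult1e1, the enzyme that inactivates oestrogen by sulfation, was at 8.95, 8.17 and 9.20 against 9.20, 8.62 and 8.78 (0.09 ± 0.22, adjusted p = 0.805).

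Lipid droplet genes were among the lists with the largest share of changes. Of 30 measured, 11 rose (36.7%, against 7.74% of all genes) and 1 fell (3.3%, against 5.08%), with a median difference of 0.34. Cidec (Entrez 14311), a protein that fuses lipid droplets and is known to rise in fatty liver, was at 7.66, 7.59 and 7.74 in intact and 8.60, 9.19 and 9.75 in ovariectomized dexamethasone libraries. The intact libraries lay within a narrow range below all ovariectomized ones. Cidec rose by 1.52 ± 0.23, or 2.87-fold (adjusted p = 0.00502, at most 0.0326 under any alternative fit). Its difference under vehicle was 0.21 (adjusted p = 0.515), and the effect was larger under dexamethasone by 1.31 ± 0.32 (adjusted p = 0.0132).

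Proteins that load or coat droplets rose with it: Fitm1 by 0.80, Plin5, which tethers droplets to mitochondria, by 0.74, and Fitm2 by 0.67. Of the lipases, Mgll rose by 0.66 and Pnpla2, which starts triglyceride breakdown, by 0.44. The 1 member that fell was Lpl, the lipase of capillary surfaces (-0.99 ± 0.30, adjusted p = 0.0483). Lpl was at 11.90, 11.51 and 12.78 in intact and 11.55, 10.87 and 10.80 in ovariectomized libraries, so the groups overlapped. The Lpl call was lost in 14 of 24 alternative fits, and its difference was -0.63 without intact replicate 3. The nuclear receptor gene Pparg, which drives lipid storage and is known to control Cidec, was at 8.32, 8.26 and 8.49 against 9.14, 8.96 and 9.47. It rose by 0.83 ± 0.14 (adjusted p = 0.00659) with no overlap. Of 10 adipocyte markers 4 were measured, and 2 of these rose, Pparg itself and the carbonic anhydrase gene Car3 (0.41 ± 0.11, adjusted p = 0.0352). The median difference of the 4 was -0.09, and the mean of their log2 levels overlapped between the groups. The log2 of the summed level of the 4 was 15.36 to 15.52 in intact and 15.66 to 16.01 in ovariectomized libraries. Car3 alone was at 15.28 to 15.48 and 15.62 to 15.98. The fat cell markers Adipoq and Plin1 were below the filter, with mean log2 levels of -0.16 and -1.72 in ovariectomized libraries. The count of droplet genes that rose was 7 under quantile normalization and without ovariectomized replicate 2, and 5 without intact replicate 1 or ovariectomized replicate 3.

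Genes of fatty acid oxidation and of PPARalpha, the nuclear receptor of fasting, rose in 18 of 42 measured members and fell in none. The share that rose was 42.9%, against 7.74% of all genes, and the median difference was 0.32. The rises were small: Vnn1, a PPARalpha target, rose by 0.65, the aldehyde dehydrogenase gene Aldh3a2 by 0.58 and the fatty acid transporter gene Cd36 by 0.52. The gatekeeper of mitochondrial oxidation, Cpt1a, was at 13.59, 13.59 and 13.48 against 13.76, 14.06 and 13.91 and rose by 0.36 ± 0.07 (adjusted p = 0.0128). Every ovariectomized library exceeded every intact one for Cpt1a. Ppara itself rose by 0.38 ± 0.11 (adjusted p = 0.0407), but its groups overlapped. The peroxisome proliferation gene Pex11a, which was not on the list, rose by 1.02 ± 0.23 (adjusted p = 0.0202). This list depended on the fit and on single libraries. Under quantile normalization the median was 0.18 and no member passed, and 0, 1, 4 and 6 members rose without ovariectomized replicate 3, intact replicate 1, ovariectomized replicate 2 and intact replicate 3. With the 6 libraries fitted alone, 2 rose. The difference of Vnn1 was 0.41 without intact replicate 3.

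Conjugating enzymes make drugs, bilirubin and steroids soluble. Of 49 measured phase II genes, 11 rose (22.4%, against 7.74% of all genes) and none fell. The largest rises were of glucuronosyltransferases: Ugt1a9 rose by 1.00 ± 0.16, Ugt3a1 by 0.85 ± 0.13 and Ugt1a1, the bilirubin-conjugating enzyme, by 0.69 ± 0.087. Ugt1a1 was at 11.43, 11.69 and 11.34 in intact and 12.16, 12.27 and 12.09 in ovariectomized libraries. The groups did not overlap (adjusted p = 0.00288). Of 5 Ugt1a genes chosen by symbol after their values were seen, 4 rose under dexamethasone and 3 fell under vehicle. Ugt1a transcripts share their last exons, and 52.1% to 79.8% of their 50-base words occur in another gene, so their values may not be separate. The count for phase II genes was 6 under quantile normalization and 4 without intact replicate 1 or ovariectomized replicate 3. Of 49 measured cytochrome P450 and xenobiotic receptor genes, 8 rose (16.3%) and 1 fell. Cyp2c38 rose by 1.20 ± 0.24 (adjusted p = 0.013), from 9.57, 10.03 and 9.16 to 10.72, 10.81 and 10.83. Cyp1a1 rose by 0.53, Cyp2c39 by 0.45, and Cyp3a59 fell by 0.48. The P450 count was 4 under quantile normalization and without ovariectomized replicate 1, 1 without intact replicate 1 and 0 without ovariectomized replicate 3.

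Metabolic and hepatocyte lists were read against the 7.74% of all genes that rose. Hnf4a (Entrez 15378), the nuclear receptor that maintains hepatocyte identity, was at 13.84, 13.77 and 14.09 in intact and 14.53, 14.40 and 14.54 in ovariectomized libraries, without overlap. It rose by 0.59 ± 0.088, or 1.5-fold (adjusted p = 0.00502). Of 9 measured hepatocyte markers 2 rose, Hnf4a and the urea cycle gene Cps1 (0.42 ± 0.12, adjusted p = 0.043). Of 54 amino acid catabolism and urea cycle genes 8 rose (14.8%) and 1 fell, with a median of 0.16 that was -0.03 under quantile normalization. Among them were the lysine-degrading gene Aass (0.49), the glycine-cleaving gene Gldc (0.49) and glutamine synthetase, Glul (0.44). Of 26 gluconeogenesis genes 4 rose (15.4%) and 1 fell: pyruvate carboxylase, Pcx (0.38), the alanine aminotransferase gene Gpt2 (0.37) and the malate dehydrogenase gene Mdh1 (0.27) rose, and the mitochondrial carboxykinase gene Pck2 fell by 0.55. Of 34 genes of fatty acid and triglyceride synthesis 5 rose (14.7%) and 1 fell. Of 73 oxidative phosphorylation subunits 9 rose (12.3%) and 1 fell, a split that was 0 higher and 9 lower under quantile normalization. Without intact replicate 1 or ovariectomized replicate 3, no amino acid gene rose and 2 oxidative phosphorylation genes did. The insulin receptor substrate gene Irs2 was at 7.03, 7.33 and 7.19 against 7.80, 8.42 and 7.70 and rose by 0.79 ± 0.20 (adjusted p = 0.0286).

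**Figure D2:**
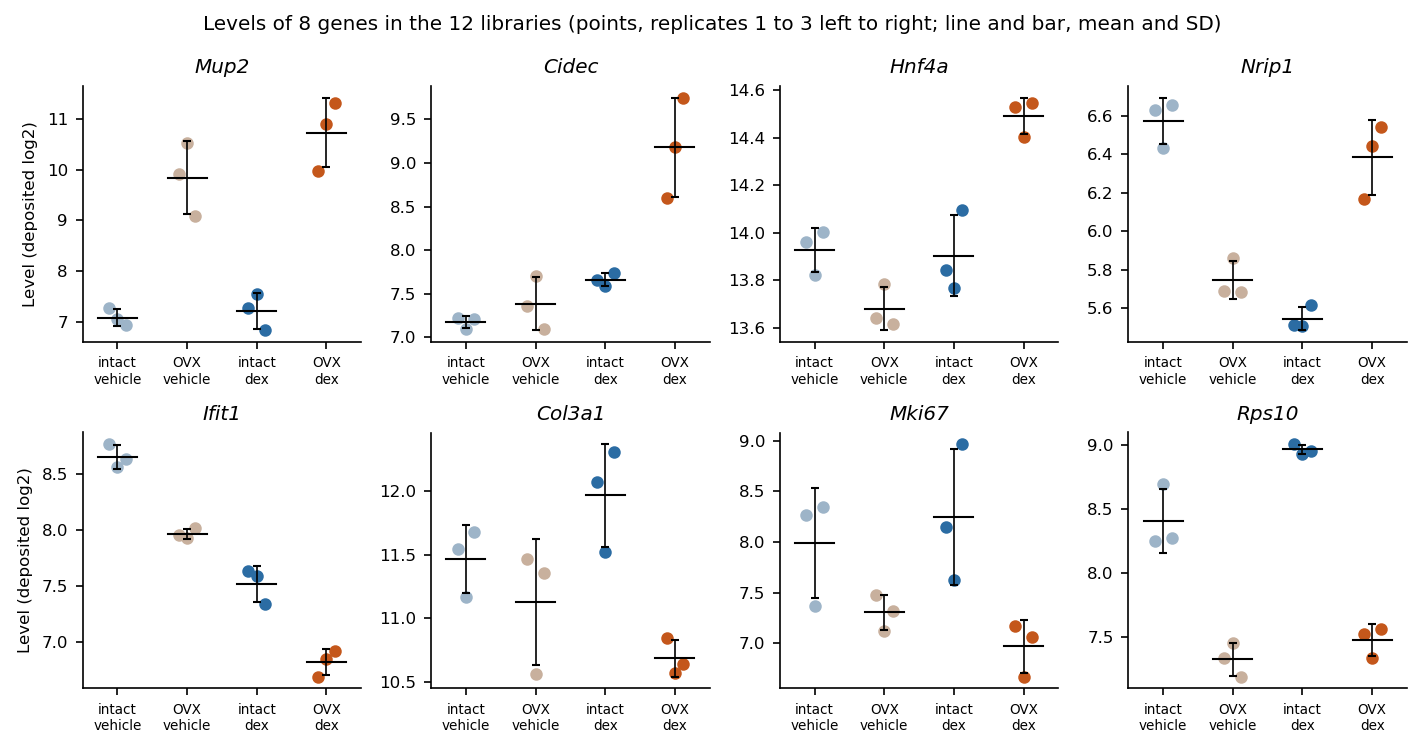
Deposited log2 levels (vertical axis) of 8 genes in the 4 groups of 3 libraries (horizontal axis; OVX, ovariectomized; dex, dexamethasone), with points for replicates 1 to 3 and bars for mean and SD. Under dexamethasone the ovariectomized libraries lie above the intact ones for Mup2, Cidec, Hnf4a and Nrip1 and below them for Ifit1, Col3a1, Mki67 and Rps10.

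Interferon response genes fell in 26 of 54 measured members (48.1%, against 5.08% of all genes) and rose in none, with a median of -0.34. Interferons induce these genes in nearly every cell as part of antiviral defence, and many are also held at a basal level without infection. Ifit1 (Entrez 15957), which binds foreign RNA, was at 7.63, 7.59 and 7.34 in intact and 6.69, 6.85 and 6.92 in ovariectomized dexamethasone libraries. All ovariectomized libraries lay below the intact ones. Ifit1 fell by 0.70 ± 0.093 (adjusted p = 0.00349, at most 0.0291 under any alternative fit). Ifi44 fell by 0.68, Rsad2, which encodes the antiviral enzyme viperin, by 0.67 and Ifit3 by 0.66. The transcription factor gene Irf7, a regulator of the group, fell by 0.41. Under vehicle 3 members were higher and 29 lower, against 12.4% and 15.5% of all genes, with a median of -0.35. Ifit1 differed by -0.69 there and Rsad2 by -0.67. The test of the difference between the effects was passed by 5 members in the higher and 8 in the lower direction, against 15.3% and 9.65% of all genes. The count that fell was 17 under quantile normalization and without ovariectomized replicate 1, 10 without intact replicate 1 and 8 without ovariectomized replicate 3.

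Other inflammatory lists were counted against the 7.74% of all genes that rose and the 5.08% that fell. Of 34 NF-kappaB cytokines and chemokines, 6 fell (17.6%) and 1 rose, but 1 or 2 fell without intact replicate 1 or 2 or any 1 ovariectomized library. The eosinophil chemokine gene Ccl24 fell by 0.47, the interferon-inducible chemokine gene Cxcl10 by 0.45, Relb by 0.44 and Ccl5 by 0.42. Of 44 acute phase genes 3 rose (6.8%) and 1 fell (2.3%): the interleukin 6 receptor gene Il6ra rose by 0.63 and the protease inhibitor gene Serpina3g fell by 0.79. Of 43 complement and coagulation genes 3 rose (7.0%) and 1 fell (2.3%), shares no higher than those of all genes. The lectin pathway proteases Masp1 (0.44) and Masp2 (0.35) and C4b (0.30) rose and properdin, Cfp, fell by 0.29. Of 26 antigen presentation genes 1 rose, the class I transactivator gene Nlrc5 (0.35), and 1 fell, the proteasome activator gene Psme2 (-0.32).

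Several fibrillar collagen genes fell in ovariectomized females. Fibrillar collagens in liver come mainly from stellate cells and portal fibroblasts. Col3a1 (Entrez 12825) was at 12.07, 11.52 and 12.31 in intact and 10.85, 10.57 and 10.64 in ovariectomized dexamethasone libraries. The groups did not overlap, and intact replicate 2 was the lowest of its group. Col3a1 fell by 1.28 ± 0.24, to 0.411 of the intact level (adjusted p = 0.0113, and 0.053 without ovariectomized replicate 3). Col1a1 fell by 1.20, Col1a2 by 0.93, the matrix proteoglycan gene Lum by 0.67 and the stellate cell receptor gene Pdgfrb by 0.54. These were the 5 of 17 measured stellate cell and fibroblast markers that fell (29.4%, against 5.08% of all genes), and none rose. Differences were above 0 in 5 of 26 collagen chain genes, grouped by symbol after their values were seen. Of the 26, 9 fell, against 5.08% of all genes, and none rose. That count was 9 under recentring, 8 under quantile normalization, 1 without intact replicate 1 and 0 without ovariectomized replicate 3, and the 5 stellate cell markers went to 1 and 0 in the same way. For Col3a1 the difference under vehicle was -0.34 (adjusted p = 0.317), and the effects did not pass the test of their difference (-0.94 ± 0.34, adjusted p = 0.0615).

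Markers of most other cell types in the liver were counted in the same way, against the 5.08% of all genes that fell. Of 16 Kupffer cell and macrophage markers 5 fell and none rose, among them Cd5l (-0.36), the Kupffer cell lectin gene Clec4f (-0.35), Cd68 (-0.35) and Vsig4 (-0.34). The log2 of their summed level was 14.47 to 14.52 in intact and 14.06 to 14.37 in ovariectomized libraries. Without intact replicate 1 or ovariectomized replicate 3 none of them passed, 2 fell without ovariectomized replicate 2, and 10 fell without ovariectomized replicate 1, the highest of its group. Of 18 sinusoidal endothelial markers 2 fell (11.1%), the scavenger receptor gene Stab2 (-0.35) and Tek (-0.36). Of 9 T and NK cell markers 1 fell, the kinase gene Lck (-0.33), and of 3 neutrophil markers 1 fell, Csf3r (-0.47). The first-listed markers of these 2 lists, Cd3e (0.11) and S100a8 (-0.16), did not pass. By limma none of 7 B cell and 10 cholangiocyte markers passed, with 1 and 2 of them at an unadjusted p under 0.05. The summed level of the stellate cell and fibroblast markers was 14.39 to 14.53 in intact and 13.93 to 14.16 in ovariectomized libraries, and that of 9 hepatocyte markers 22.12 to 22.23 and 22.25 to 22.46. In bulk liver RNA, fewer cells of a type and less RNA per cell cannot be told apart, and the part of cell composition in these results was not tested.

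**Figure D3:**
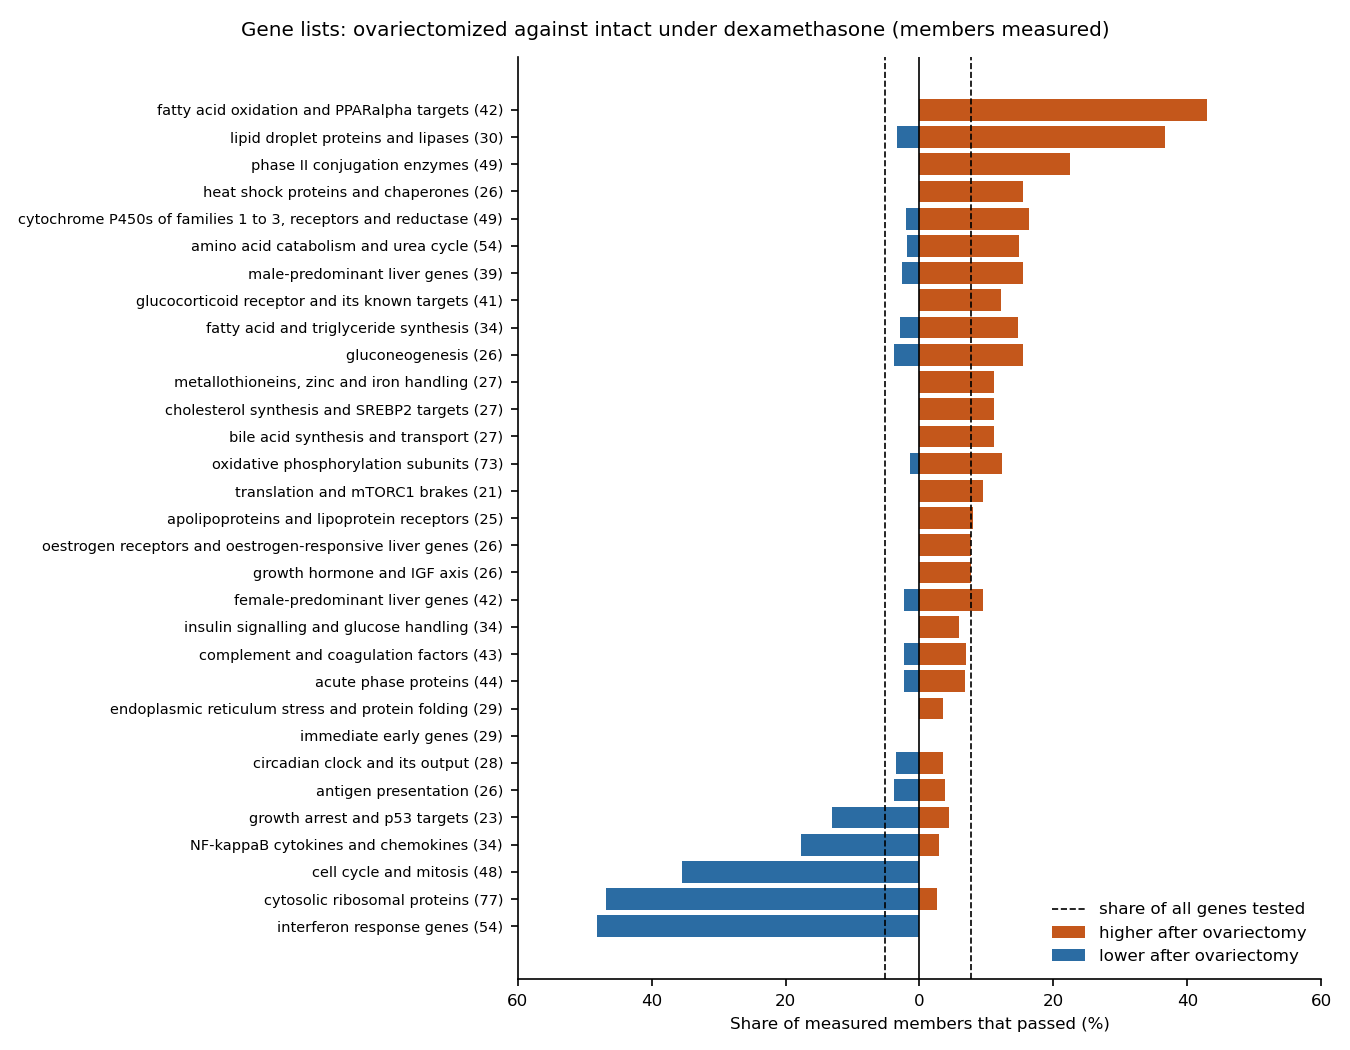
Share of the measured members of 31 gene lists (number of members in parentheses) that passed as higher (orange, to the right) or lower (blue, to the left) in ovariectomized than in intact females under dexamethasone, in percent. Dashed lines mark the shares of all genes tested, 7.74% higher and 5.08% lower; fatty acid oxidation leads the rises and interferon response genes lead the falls.

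Cell cycle genes fell in 17 of 48 measured members (35.4%, against 5.08% of all genes) and rose in none, with a median of -0.54. Mki67 (Entrez 17345), the proliferation antigen Ki-67, was at 8.15, 7.63 and 8.97 in intact and 7.17, 6.67 and 7.07 in ovariectomized dexamethasone libraries. Intact replicate 3 was the highest and replicate 2 the lowest of the intact group, and the groups did not overlap. Mki67 fell by 1.28 ± 0.31 (adjusted p = 0.0278). Other mitotic genes fell alongside: Cdc20 by 1.23, the ubiquitin ligase gene Ube2c by 1.20, the cyclin gene Ccnb2 by 1.15 and Ckap2l, a spindle protein gene, by 1.24. Over the 48 members the mean level in intact replicate 3 was 0.66 above the mean of the 6 libraries, against 0.16 in replicate 1 and -0.03 in replicate 2, while the ovariectomized libraries lay between -0.28 and -0.24. Without intact replicate 3 the count was 6 and the median -0.38. The differences of Mki67, Cdc20, Ube2c, Ccnb2 and Ckap2l were then -0.92, -0.78, -0.73, -0.73 and -0.82, none of which passed. Mki67 also did not pass without intact replicate 1 or without ovariectomized replicate 2 or 3. The count of the list was 25 without intact replicate 2, 2 without intact replicate 1, and 4, 3 and 1 without ovariectomized replicates 1, 2 and 3. Under quantile normalization it was 5.

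Ribosomal protein genes fell in 36 of 77 measured members (46.8%, against 5.08% of all genes) and rose in 2 (2.6%, against 7.74%). The median difference was -0.27. These genes encode the protein subunits of the cytosolic ribosome. Rps10 (Entrez 67097) was at 9.01, 8.93 and 8.96 in intact and 7.53, 7.33 and 7.57 in ovariectomized dexamethasone libraries. The groups lay far apart relative to their spread. Rps10 fell by 1.49 ± 0.12 (adjusted p = 9.16e-05), and under vehicle it fell by 1.08 (adjusted p = 0.000229). Rps28 fell by 1.39, Rps23 by 1.18 and Rpl36a by 1.18, and each was also lower under vehicle, by 1.11, 1.02 and 0.98. Rps19 (0.51) and Rpl34 (0.42) were the 2 that rose. Of the 77, 42 share at least 20% of their 50-base words with another gene, often a processed copy, and 19 of these fell, while 17 of the 35 without such copies fell. The count was 34 under quantile normalization, 17 and 23 without ovariectomized replicates 3 and 2, and 20 and 22 without intact replicates 1 and 3. Under vehicle 13 members of the list were higher and 12 lower, with a median of 0.05. Of all genes tested, 12.4% were higher and 15.5% lower there. The test of the difference was passed by 27 members as lower under dexamethasone and 1 as higher, against 9.65% and 15.3% of all genes.

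**Figure D4:**
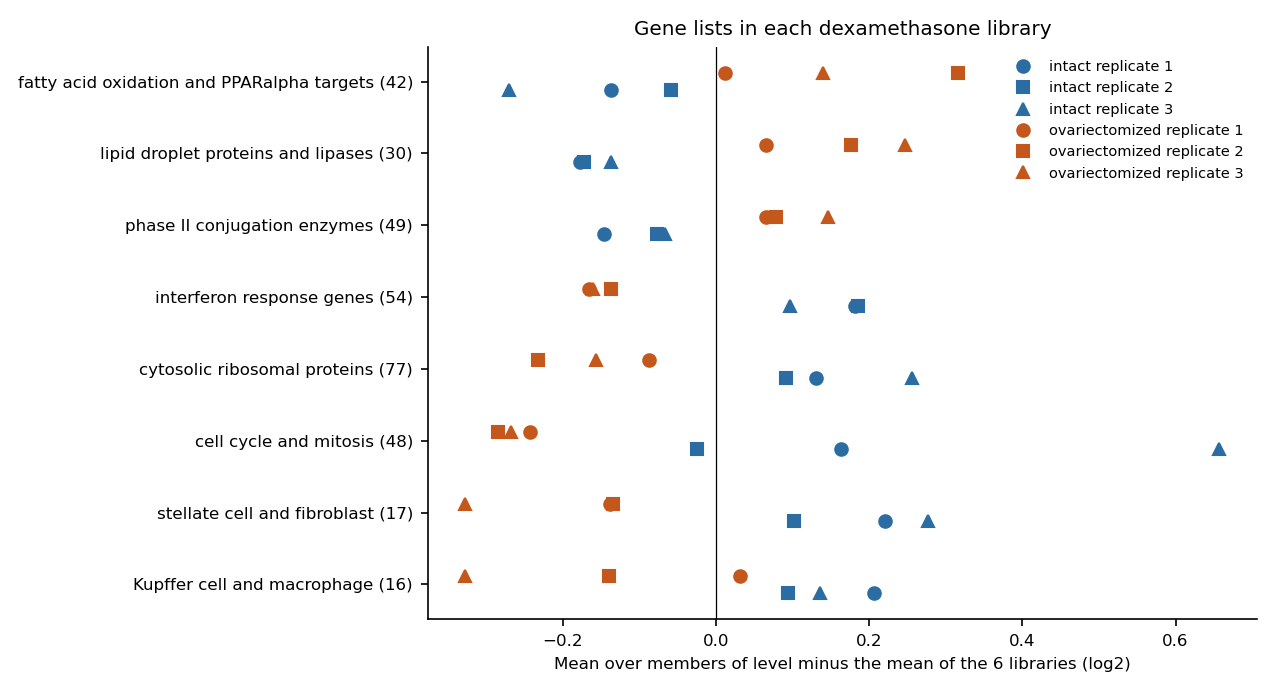
Mean over the members of 8 gene lists (number of members in parentheses) of the level in each dexamethasone library minus the mean of the 6 libraries, in log2 units (horizontal axis), with blue for intact and orange for ovariectomized and 1 symbol per replicate number. The groups do not overlap in any of the 8 lists, and intact replicate 3 stands at 0.66 for cell cycle genes, apart from the other 2 intact libraries. The lists were chosen with their results known. The groups also do not overlap in some lists where no member passed, such as B cell and cholangiocyte markers.

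Igf2bp3 (Entrez 140488), an RNA-binding protein of fetal growth, was among the clearest falls. Its level was 7.23, 7.22 and 7.06 in intact and 5.72, 5.91 and 6.01 in ovariectomized dexamethasone libraries, with no overlap. Igf2bp3 fell by 1.29 ± 0.088, to 0.409 of the intact level (adjusted p = 3.41e-05, at most 0.00762 under any alternative fit). Under vehicle its difference was -1.76 ± 0.088 (adjusted p = 2.39e-06), and the fall was smaller under dexamethasone by 0.47 ± 0.12 (adjusted p = 0.0189).

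Large differences also stood among genes that did not pass. H19, an imprinted fetal RNA, was at 7.78, 6.12 and 10.05 in intact and 5.84, 5.70 and 5.63 in ovariectomized libraries. Its intact libraries spread widely, with replicate 3 the highest (difference -2.26 ± 0.69, adjusted p = 0.0512). The trefoil factor gene Tff3 was at 8.63, 7.40 and 10.51 against 7.68, 6.75 and 6.73, also with intact replicate 3 the highest (-1.79 ± 0.57, adjusted p = 0.0567). Rn45s, the 45S ribosomal RNA precursor, was at 16.06, 15.91 and 15.64 in intact and 15.87, 18.13 and 19.14 in ovariectomized libraries (1.84 ± 0.59, adjusted p = 0.0587). Only ovariectomized replicates 2 and 3 were raised for Rn45s. Lars2, a mitochondrial leucyl-tRNA synthetase gene, followed the same libraries, with 13.27, 13.23 and 12.86 against 13.31, 15.50 and 16.44. Lars2 passed as a rise of 1.96 ± 0.57 (adjusted p = 0.043), and its adjusted p was 0.0506 to 0.143 when any library other than ovariectomized dexamethasone replicate 1 was left out. Without ovariectomized replicate 3 its difference was 1.29. The part of ribosomal RNA reads in the Lars2 value was not tested.

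The effect of ovariectomy under dexamethasone was then set against that under vehicle, where 1608 genes were higher and 2010 lower. The 2 comparisons share no library, but both came from the same fit, which uses a common estimate of each gene's spread. Their calls are therefore not independent, and a gene with a small spread can pass in both more easily. Of all genes tested, 12.8% passed under dexamethasone, and 12.4% were higher and 15.5% lower under vehicle. Of the genes that passed under dexamethasone, 633 also passed under vehicle, which is 38.1% of the 1662 and 17.5% of the 3618 that passed under vehicle. More of them moved in opposite directions than in the same one: 195 had the same direction, 93 higher and 102 lower, and 438 had opposite directions. Of the 438, 370 were higher under dexamethasone and lower under vehicle, and 68 the reverse. Across the 12965 genes the rank correlation of the 2 effects was -0.10 (Spearman) and the linear one 0.04 (Pearson), as a description over genes that are not independent. The test of the difference was passed by 1983 genes (15.3%) with a higher effect under dexamethasone and 1251 (9.65%) with a lower one.

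Among the 195 genes that passed in the same direction under both treatments were Mup2, Mup13, Mup19, Mup15, Mup12, Mup8, Cyp2c38 and Fitm1, which were higher, and Igf2bp3, Rps28, Rps10 and Ifit1, which were lower. Among those with opposite directions were Nrip1, described above, and Mia2, which encodes a protein of secretory cargo export. Mia2 (Entrez 338320) was at 8.67, 8.76 and 8.75 in intact and 9.37, 9.52 and 9.58 in ovariectomized dexamethasone libraries, and at 10.54, 9.96 and 10.40 against 8.98, 9.17 and 8.84 under vehicle. The groups were apart under both treatments, with opposite order. Mia2 rose by 0.76 ± 0.13 under dexamethasone (adjusted p = 0.00778), its vehicle difference was -1.30 ± 0.13, and the effects differed by 2.06 ± 0.18 (adjusted p = 0.000155). Other genes that rose under dexamethasone and were lower under vehicle were Acss3 (0.77 and -0.73), a mitochondrial acyl-CoA synthetase gene, Ugt1a6b (0.74 and -0.66), Ugt1a1 (0.69 and -0.77), the transcriptional repressor gene Rest (0.66 and -0.70), Cep85l (0.66 and -0.80) and Gpam (0.66 and -0.96), the first enzyme of glycerolipid synthesis. For Gpam the rise under dexamethasone passed narrowly (adjusted p = 0.0442), and recentring and most single-library omissions ended it.

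**Figure D5:**
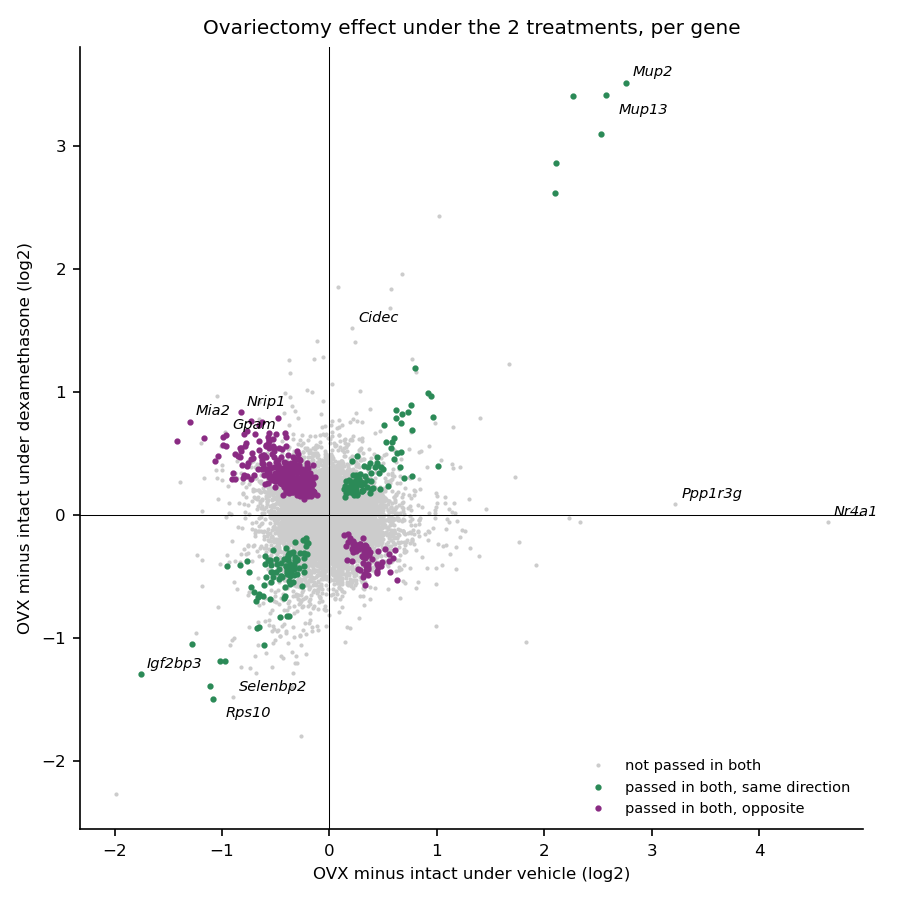
Ovariectomy effect under vehicle (horizontal axis) and under dexamethasone (vertical axis) for each of the 12965 genes, in log2 units, with genes that passed in both in green (195, same direction) and purple (438, opposite). The Mup genes lie at the upper right, and Nr4a1 and Ppp1r3g lie far right near 0 on the vertical axis.

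The largest differences between the effects belonged to genes that differed under vehicle and hardly under dexamethasone. Nr4a1 (Entrez 15370), an orphan nuclear receptor induced within minutes by many stimuli, was at 6.64, 6.47 and 6.53 in intact and 6.42, 6.46 and 6.60 in ovariectomized dexamethasone libraries. The groups overlapped, and the difference was -0.05 ± 0.28 (adjusted p = 0.914), which was 0.06 under quantile normalization. Under vehicle it was 4.64 ± 0.28 (adjusted p = 1.02e-05), and the effects differed by -4.69 ± 0.39 (adjusted p = 0.000148). Ppp1r3g, which targets a phosphatase to glycogen, was at 6.47, 6.35 and 6.72 against 5.99, 7.01 and 6.81 under dexamethasone (0.09 ± 0.30, adjusted p = 0.861). Its vehicle difference was 3.21 (adjusted p = 0.000123). Of 29 immediate early genes none passed in either direction under dexamethasone by limma, with 3 at an unadjusted p under 0.05. Under vehicle 19 of them were higher, against 12.4% of all genes. The test of the difference was passed by 17 as lower under dexamethasone, against 9.65% of all genes. Fos was at 5.66, 5.36 and 6.03 in intact and 5.55, 5.34 and 5.36 in ovariectomized dexamethasone libraries (-0.27 ± 0.32, adjusted p = 0.595).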

How the data were processed

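Livers were collected 6 hours after PBS or dexamethasone (1 mg/kg), RNA was extracted with Trizol and RNeasy columns, and TruSeq libraries were sequenced on a NextSeq500, per the labels' protocols. The submitters' processing notes name the build mm9 and, with no version, HTSeq, TopHat2, Trim Galore, DESeq2 and DESeq. The authors deposited log2 normalized values for 24962 entries, per the labels' description of the file. The exact transformation is not given in the sources used here, so the depth is unknown.

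Of several entries for a symbol, that of highest mean was used, and 12965 genes with a mean of at least 4 were tested. All 4 groups were fitted in limma 3.58.1 (R 4.3.3; lmFit, eBayes with trend, 8 residual degrees of freedom), with Benjamini-Hochberg adjustment over all genes. Ovariectomized and intact libraries were compared within each treatment, and the 2 effects were then tested for a difference. Replicate numbers did not pair the groups: same-numbered dexamethasone libraries deviated together with r = -0.055, 0.396 and -0.169. Families and gene lists are described by counts and medians. The genes, lists and comparisons were chosen with earlier results of these data known.

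Genes named were up to 15 rises and 15 falls that passed without overlap, up to 5 large differences that did not pass, up to 4 passing members of each list (the first member where fewer than 2 passed), up to 8 genes in each direction of the difference, up to 8 passing in both comparisons with the same sign and 8 with opposite signs, and Nr3c1, Esr1, Fkbp5, Per1, Tsc22d3, Sult1e1, Igf1, Cdkn1a, Nr4a1 and Lcn2. Clone symbols were passed over (1 among lower differences). Pdgfrb, Hsd17b6, Irf7, Cpt1a, Ppara, Fitm2, Mgll, Tdo2, Rps19, Rpl34, Alb, Mup3, Mup10 and Mup20 fell outside this rule and were named after their values were seen. Shared 50-base words, for 12898 genes (99.5%), came from GRCm38 transcripts and promoters from RefSeq (Python 3.11.15, Biopython 1.88). The fit was tested on simulated data.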

Additional observations from a re-analysis of the deposited data

Results flagged for a closer look

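These genes had an ovariectomy effect that differed between dexamethasone and vehicle by limma's test of the difference (Benjamini-Hochberg adjusted p under 0.05). Values are the effect under dexamethasone minus the effect under vehicle, in log2 units.

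The effect was higher under dexamethasone for Mia2 (2.06), Abhd2 (2.02), Il6ra (1.80), Rnf125 (1.78), Nrip1 (1.66), Esr1 (1.66), Tsku (1.65), Onecut1 (1.64) and Gpam (1.62). It was also higher for Acss3 (1.5), Cep85l (1.46), Ugt1a1 (1.46), Ugt1a6b (1.40), Lcn2 (1.38), Rest (1.36), Cidec (1.31), Pex11a (1.22), Ugt1a9 (1.16) and Fkbp5 (1.01). The smallest of these differences were those of Nr3c1 (0.54) and Igf2bp3 (0.47). For Igf2bp3 both effects were falls.

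The effect was lower under dexamethasone for Nr4a1 (-4.69), Ppp1r3g (-3.12), Nr4a2 (-2.39), Ankrd37 (-2.33), Btbd19 (-2.26), Atf3 (-1.98), Ier3 (-1.72) and Nupr1 (-1.61). None of these 8 genes passed under dexamethasone itself.

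Esr1 did not pass under dexamethasone, and its vehicle difference was -1.39 (adjusted p = 0.0132 by limma), and the effects differed by 1.66 ± 0.49 (adjusted p = 0.0301).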

How the results depend on the processing

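The counts of genes moved with the fit. Under quantile normalization 400 genes were higher and 368 lower under dexamethasone, and with the 6 libraries fitted alone 398 and 203. With library weights the counts were 3289 and 2488 under dexamethasone, 2675 and 3244 under vehicle, and 3651 higher and 3008 lower for the difference. With a minimum absolute log2 fold change of 1 they were 16 and 24, 43 and 23, and 112 and 53. Taking out the dependence of each library on GC content and transcript length, an alternative chosen after seeing the data, gave 1316 lower genes under vehicle. With replicate number as a block, 880 genes were higher and 653 lower under dexamethasone. Of the intact dexamethasone libraries, only replicate 2 correlated best with the ovariectomized library of its own number (r = 0.396). Intact replicate 3 correlated more strongly with ovariectomized replicate 1 (r = 0.425).

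Leaving out each of the 12 libraries gave 145 to 1130 higher and 62 to 722 lower genes under dexamethasone, 949 to 1788 and 1266 to 2201 under vehicle, and 1433 to 2116 and 741 to 1404 for the difference. The lowest counts came without ovariectomized dexamethasone replicate 3, where 143 of the 145 and all 62 were among the genes that passed with it. Of the 126 named genes that passed under dexamethasone, 30 kept the call in every other fit that could be run for them, the fold minimum aside.

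Igf1 was at -0.0081 when recentred and -0.15 under quantile normalization, Hspa5 at -0.0295 and Nr4a1 at 0.0604 under quantile normalization, and Sult1e1 at -0.073 with library weights. Leaving out 1 library gave -0.0717 to 0.10 for Igf1, -0.0297 to 0.78 for Esr1 and -0.21 to 0.30 for Sult1e1. The cause of these changes was not tested. With 3 libraries in each group and unknown depth, small differences were often not detectable.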
